A study of Homo sapiens with 9 samples.

Results

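The genes described here are 37 genes of the NRF2 antioxidant response, among 20030 genes counted in the series. They are the transcription factor NRF2 (gene NFE2L2) with its inhibitor and a partner, and the enzymes and transporters that make glutathione, reduce peroxides and quinones, supply NADPH and store iron. They were chosen by name as known parts of the pathway and found in the count table by gene symbol. RNA was sequenced from the human hepatocellular carcinoma (HCC) line MHCC97L, untreated, and from 2 lines derived from it. MHCC97L-Src had been grown in rising concentrations of saracatinib, an inhibitor of SRC family kinases, until it was stably resistant to 4 μmol/L. MHCC97L-Oxa was stably resistant to 2 μmol/L of oxaliplatin, a platinum drug that binds DNA. Each line was read in 3 libraries, 9 in all, and the study asked how the RNA of each resistant line differed from that of MHCC97L.

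In unstressed cells KEAP1 holds NRF2 and passes it to degradation. Oxidants and electrophiles modify KEAP1, and NRF2 then accumulates, pairs with small MAF proteins such as MAFG and binds antioxidant response elements near its target genes. The targets raise the supply of cysteine and glutathione, the thioredoxin system and the NADPH that both consume, and the pathway is known in liver cancer both for mutations that keep it switched on and for its part in tolerance to platinum drugs, which glutathione can bind. NRF2 is controlled mainly as a protein, so the level of its RNA is a separate quantity from its activity.

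The labels give 1 resistant line per drug, so the drug and the particular line cannot be told apart. They list the drug as the treatment of the resistant libraries and do not say whether it was present when RNA was taken. The study's text calls the comparison of MHCC97L with MHCC97L-Src one of independent experiments, and the labels do not say how the libraries of a line were cultured, so p-values here measure the spread between these libraries, part of which may be technical. In bulk RNA of this kind, fewer cells with a transcript and less of it per cell cannot be told apart. Between 16970486 and 18209213 reads were counted per library. Against the labelled cell type of a hepatoma line, 8 of 12 hepatocyte markers were at or under 3 counts in every library and ALB, APOB, TTR, FGA and AFP were at 0 in all 9, while of 5 epithelial markers KRT8 and KRT18 were high, EPCAM had 0 to 2 counts, KRT19 had 0 to 11 and CDH1 had 15 to 19 counts in MHCC97L and 2 to 5 in the resistant libraries. The leukocyte markers PTPRC, CD3E and LYZ and the endothelial marker KDR were at 0 throughout. Summed counts of the leukocyte list, mostly CD68, were 892 to 1456 in MHCC97L, 1371 to 1639 for MHCC97L-Src and 2708 to 2714 for MHCC97L-Oxa. Those of the fibroblast list, mostly COL1A1, DCN and PDGFRB, were 2523 to 3805, 1427 to 1736 and 2939 to 3279, and the part of either in the results was not tested.

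One library followed GC content most strongly. The deviation of the first MHCC97L library from the mean of all libraries followed the GC content of the genes, with a Spearman correlation of -0.78 across 12126 genes, which are not independent replicates, against -0.25 to 0.70 in the other 8. The second and first MHCC97L-Src libraries had 0.70 and 0.54, in the opposite direction, and those of MHCC97L-Oxa had 0.17 to 0.31. Among the 37 genes the trend of the first MHCC97L library showed directly. Of the 20 tested genes with a GC content of 48% or more, 19 had their lowest MHCC97L level in that library, and of the 16 below it 11 had their highest level there. The 48% limit was set after the values were seen. Results against MHCC97L are therefore given with the counts as deposited and, where the value or its call moved, with each library corrected for GC content and gene length (the GC and length correction) or without the first MHCC97L library.

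**Figure D1:**
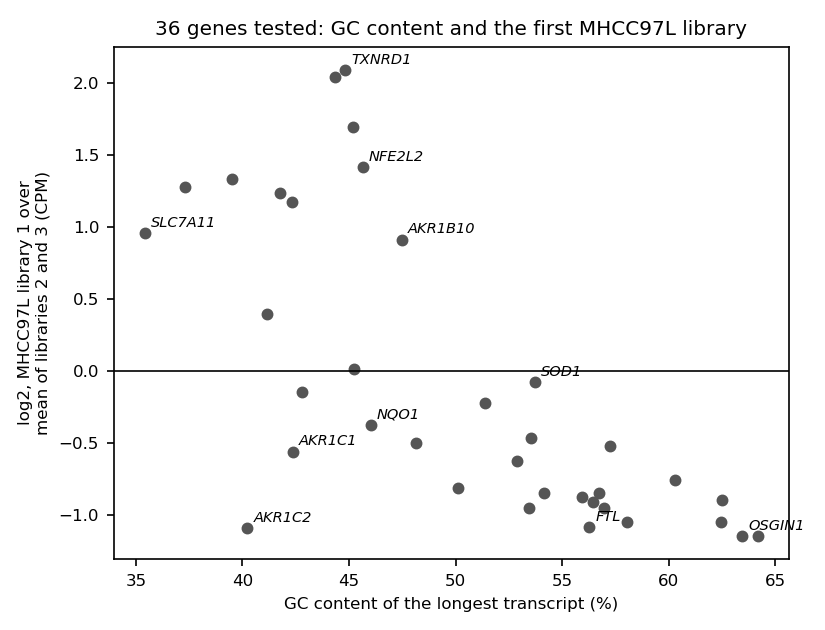
GC content of each gene's longest transcript in percent (x axis) against the log2 ratio of the first MHCC97L library to the mean of the other 2, in CPM, counts scaled to library size (y axis), for the 36 genes tested. The genes with a GC content of 48% or more lie between -1.14 and -0.08 and most of those below it lie above 0, but AKR1C1, AKR1C2, NQO1 and TXN lie below 0.

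By the authors' FPKM values (fragments normalised to gene length and library size), the only scale here that compares genes with each other, the levels of the 37 genes spanned a wide range. The ferritin chains FTH1 and FTL were first and second in all 3 lines, with mean FPKM of 9506 and 4155 in MHCC97L. PRDX1, GPX1, TALDO1 and SOD1 followed, with 740, 554, 481 and 409. At the other end were SLC7A11 at 5.38, AKR1B10 at 0.586, AKR1C2 at 0.276 and GPX2, the intestinal glutathione peroxidase, which had 3 counts in one MHCC97L library and 0 in the other 8. GPX2 was not tested in any comparison, and AKR1B10 was too low to be tested between the 2 resistant lines. All other levels below are CPM, counts scaled to a common library size by edgeR's TMM method, given in the order of libraries 1, 2 and 3.

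Against MHCC97L, the tested genes lay mostly lower in both resistant lines, and few of them passed the test with the counts as deposited. In MHCC97L-Src, 2 of 36 genes fell at an adjusted p under 0.05 by edgeR's quasi-likelihood test, SLC7A11 and AKR1C1, and 0 rose, where 2.13% of all tested genes were called, 0.698% lower and 1.43% higher. At an unadjusted p under 0.05, 12 were lower and 0 higher, against 20.1% and 9.4% of all tested genes. In MHCC97L-Oxa, 1 gene fell, NQO1, and 0 rose, where 0.953% of all tested genes were called, 0.182% lower and 0.771% higher. At an unadjusted p under 0.05, 14 were lower and 0 higher, against 13.6% and 8.84% of all tested genes. DESeq2 called 6 genes lower and 0 higher in each comparison, where it called 11.6% and 2.67% of all tested genes lower. All 3 MHCC97L-Src libraries lay below all 3 MHCC97L libraries for 13 genes, or 36.1% of those tested, against 12.2% of all tested genes, and above them for 2, against 17.5%. For MHCC97L-Oxa these counts were 14 genes, or 38.9%, against 9.93%, and 2 genes against 18.2%. The median log2 fold change was -0.31 over the 36 genes and -0.16 over all tested genes for MHCC97L-Src, and -0.47 and -0.19 for MHCC97L-Oxa. The 2 comparisons share the MHCC97L libraries and are not independent of each other.

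With a correction of each library for GC content and gene length, 10 genes fell and 0 rose in MHCC97L-Src, where 10.6% of all tested genes were called and 5.12% were called lower. In MHCC97L-Oxa 14 fell and 0 rose, where 12.9% were called and 6.44% were called lower. The median log2 fold changes with this correction were -0.44 over the genes described and -0.05 over all tested genes for MHCC97L-Src, and -0.47 and -0.08 for MHCC97L-Oxa. Which genes passed also depended on the first MHCC97L library. Without it and without the correction, 4 genes fell in MHCC97L-Src, where 1.94% of all tested genes were called lower, and 19 fell and 2 rose in MHCC97L-Oxa, where 6.6% were called lower and 11.9% higher. Without it and with the correction, 14 genes fell in MHCC97L-Src and 20 in MHCC97L-Oxa, where 11.3% and 19.6% of all tested genes were called in either direction. Without the third MHCC97L library 0 of the genes described were called in either comparison, and 22 and 2 genes were called among all genes tested. Leaving out any one library of the resistant line also gave 0 in both comparisons. Among all genes tested, those fits called 27 to 69 genes in MHCC97L-Src and 2 in MHCC97L-Oxa.

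**Figure D2:**
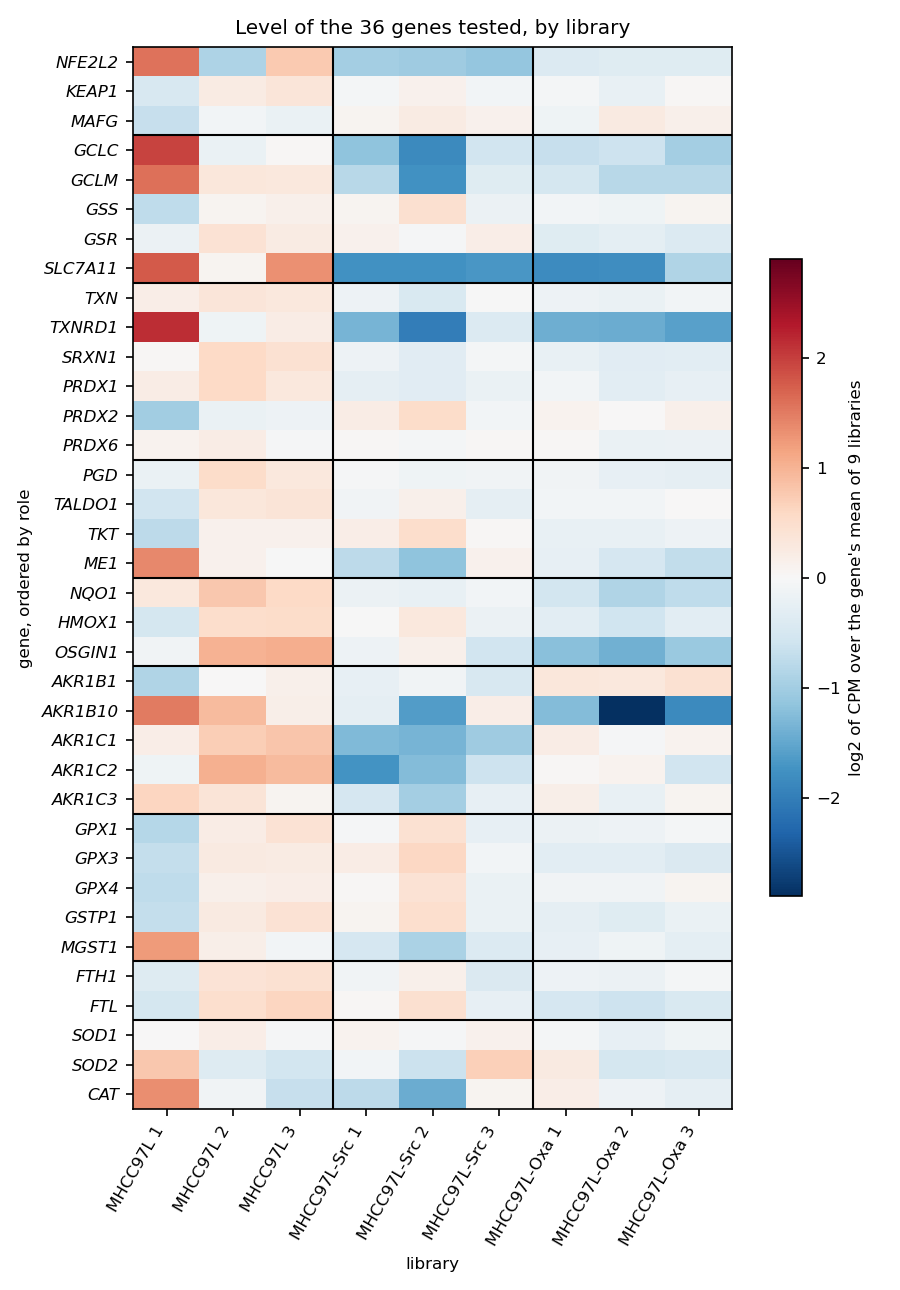
Level of each tested gene (rows, grouped by role between the horizontal lines) in each of the 9 libraries (columns), as the log2 of its CPM over the gene's mean of all libraries, red above and blue below. SLC7A11 is above its mean in MHCC97L libraries and below it in all 6 of the resistant lines, AKR1C1 is lowest in MHCC97L-Src, and the first MHCC97L library differs from the other 2 in many rows.

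**Figure D3:**
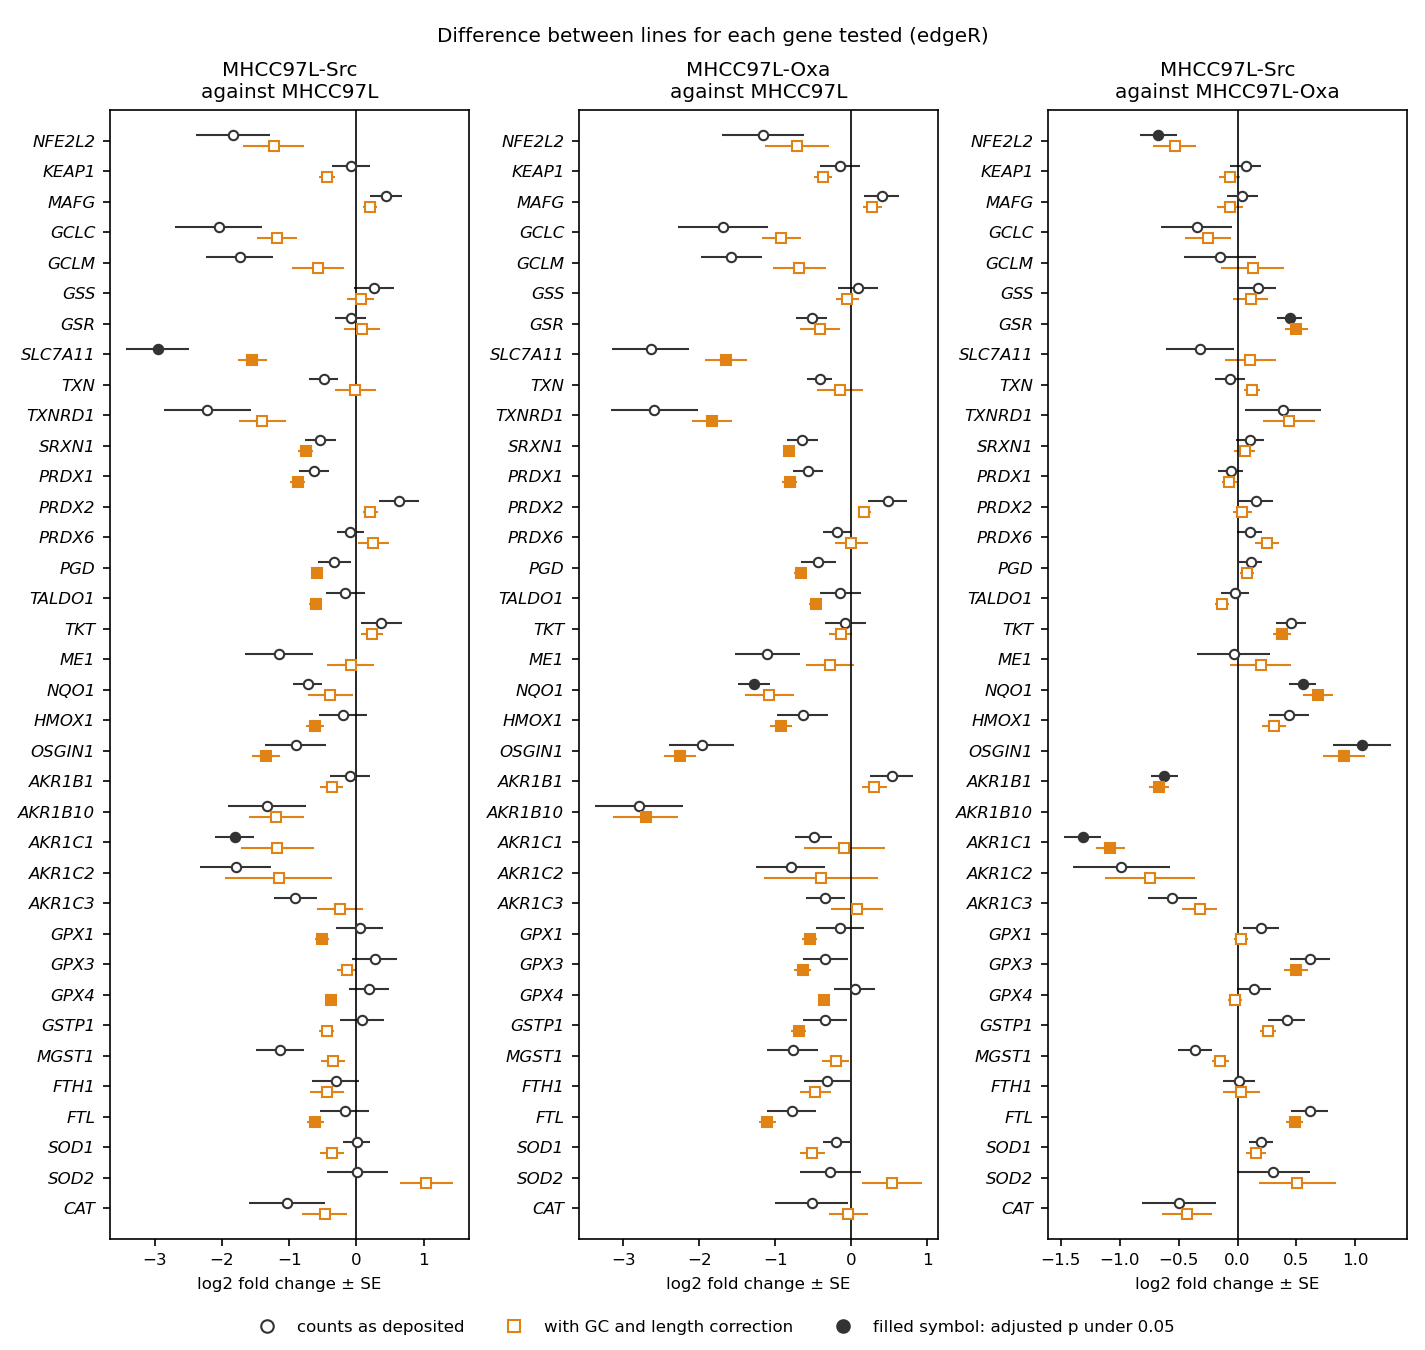
Log2 fold change with its standard error (x axis) for each tested gene (y axis) in the 3 comparisons, from the counts as deposited (circles) and with the GC and length correction (squares). Filled symbols have an adjusted p under 0.05 in edgeR's quasi-likelihood test, and the 2 left panels share the MHCC97L libraries.

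Of the genes that control the pathway, NFE2L2 (chr2:177227595-177392697 in GRCh38, minus strand) was uneven in MHCC97L and even in the resistant lines. Its level was 79.2, 14.2 and 45.1 CPM in the MHCC97L libraries, 13.4, 13.0 and 12.3 in those of MHCC97L-Src, and 20.1, 20.8 and 20.8 in those of MHCC97L-Oxa. The MHCC97L-Src libraries lay below all others, whereas the second MHCC97L library was lower than every MHCC97L-Oxa library. The log2 fold change was -1.84 (SE 0.55) in MHCC97L-Src and -1.17 (SE 0.54) in MHCC97L-Oxa, with edgeR adjusted p of 0.105 and 0.234. These were -1.23 and -0.71 with the GC and length correction, and -1.15 and -0.43 without the first MHCC97L library, and none passed. Between the resistant lines NFE2L2 was 1.59-fold lower in MHCC97L-Src (log2 fold change -0.67, SE 0.16, edgeR adjusted p = 0.0392), a call lost with the GC and length correction (-0.53, adjusted p = 0.114). KEAP1, the inhibitor, was at 44.1, 71.7 and 77.6 CPM in the MHCC97L libraries, 58.8, 66.6 and 57.4 in those of MHCC97L-Src, and 58.7, 52.7 and 62.5 in those of MHCC97L-Oxa. The 3 groups overlapped, and no adjusted p for KEAP1 was under 0.05 with the counts as deposited or with the correction. With the correction and without the first MHCC97L library, KEAP1 was called lower in both resistant lines (edgeR adjusted p = 0.0475 and 0.0439). MAFG was at 109 ± 6.62 CPM in MHCC97L-Src and 106 ± 14.2 in MHCC97L-Oxa, against 80.3 ± 16.1 in MHCC97L (mean ± SD, n = 3), and passed the test in neither.

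Glutathione supply held some of the larger differences from MHCC97L, led by SLC7A11. SLC7A11 (chr4:138164097-138242349), the light chain of the cystine importer that feeds glutathione synthesis, was at 70.6, 21.6 and 51.1 CPM in the MHCC97L libraries, 6.04, 6.07 and 6.36 in those of MHCC97L-Src, and 5.82, 5.85 and 11.3 in those of MHCC97L-Oxa. Every library of both resistant lines was below every MHCC97L library. In MHCC97L-Src SLC7A11 fell 7.76-fold (log2 fold change -2.96, SE 0.47, edgeR adjusted p = 0.0199), and the change was -1.55 with the GC and length correction (adjusted p = 0.00821) and -2.51 without the first MHCC97L library (adjusted p = 0.00577). Leaving out the third MHCC97L library or any MHCC97L-Src library ended the call, with adjusted p up to 0.0909. For MHCC97L-Oxa its log2 fold change was -2.64 (SE 0.51), with an edgeR adjusted p of 0.06. It passed with the correction (-1.65, adjusted p = 0.0133) and without the first MHCC97L library (-2.15, adjusted p = 0.0262). The GC content of the SLC7A11 transcript, 35.4%, was the lowest of the 37 genes.

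GCLC and GCLM are the catalytic and modifier subunits of glutamate-cysteine ligase, which makes the first step of glutathione synthesis. GCLC was at 68.2, 15.2 and 17.8 CPM in the MHCC97L libraries, 7.81, 4.83 and 11.9 in those of MHCC97L-Src, and 11.0, 11.5 and 8.82 in those of MHCC97L-Oxa. GCLM was at 73.6, 30.6 and 30.1, then 14.0, 7.24 and 19.2, then 17.1, 13.9 and 14.0. Both genes were higher in every MHCC97L library than in any library of the resistant lines, with the first MHCC97L library far above the other 2. The log2 fold changes in MHCC97L-Src were -2.05 (SE 0.65) for GCLC and -1.73 (SE 0.50) for GCLM, with edgeR adjusted p of 0.111 and 0.101. They were -1.17 and -0.57 with the correction (adjusted p = 0.0529 and 0.36), and -0.97 and -1.13 without the first MHCC97L library (adjusted p = 0.196 and 0.12). In MHCC97L-Oxa they were -1.69 (SE 0.59) and -1.58 (SE 0.41), with edgeR adjusted p of 0.197 and 0.129, and with the correction -0.92 and -0.69 (adjusted p = 0.0664 and 0.241). Without the first MHCC97L library GCLM fell in MHCC97L-Oxa (-0.93, edgeR adjusted p = 0.00951) and GCLC differed by -0.57 (adjusted p = 0.103). GSS, which joins glycine in the last step of glutathione synthesis, was at 117 ± 35.2 CPM in MHCC97L, 141 ± 31.9 for MHCC97L-Src and 124 ± 9.85 for MHCC97L-Oxa (SD, n = 3), and did not pass in any comparison.

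GSR reduces oxidized glutathione with NADPH. It was at 288, 433 and 381 CPM in the MHCC97L libraries, 354, 317 and 370 in those of MHCC97L-Src, and 253, 267 and 245 in those of MHCC97L-Oxa. The MHCC97L-Oxa libraries lay below all 6 others. Against MHCC97L the log2 fold change of GSR in MHCC97L-Oxa was -0.53 (SE 0.21), with an edgeR adjusted p of 0.209, or 0.00666 without the first MHCC97L library. With the correction it was -0.42 (SE 0.26, edgeR adjusted p = 0.33), which did not pass. With the correction and without that library it was -0.68 (adjusted p = 0.00658). Against MHCC97L-Oxa, GSR was 1.36-fold higher in MHCC97L-Src (log2 fold change 0.44, SE 0.11, edgeR adjusted p = 0.0458, and 0.0174 with the correction).

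In the thioredoxin system, TXNRD1, the reductase that keeps thioredoxin reduced, was at 1027, 213 and 269 CPM in the MHCC97L libraries, the first far above the other 2. It was at 91.0, 57.3 and 176 CPM in MHCC97L-Src, and at 86.2, 85.4 and 78.0 in the other resistant line. No library of a resistant line reached the lowest MHCC97L library. In MHCC97L-Oxa the log2 fold change of TXNRD1 was -2.59 (SE 0.57), with an edgeR adjusted p of 0.0864, and it passed with the correction (-1.83, adjusted p = 0.00867) and without the first MHCC97L library (-1.44, adjusted p = 0.00137). In MHCC97L-Src it was -2.22 (SE 0.65, edgeR adjusted p = 0.102), -1.40 with the correction (adjusted p = 0.0504) and -1.11 without the first MHCC97L library (adjusted p = 0.133). SRXN1, the sulfiredoxin that restores over-oxidized peroxiredoxins, was at 124, 179 and 163 CPM in the MHCC97L libraries, 110, 95.5 and 116 in those of MHCC97L-Src, and 104, 96.3 and 96.9 in those of MHCC97L-Oxa. Both resistant lines lay below MHCC97L without overlap, and SRXN1 fell with the correction, at log2 fold changes of -0.75 and -0.82 in MHCC97L-Src and MHCC97L-Oxa (edgeR adjusted p = 0.0104 and 0.00382), where -0.54 and -0.65 as deposited did not pass. PRDX1, a cytosolic peroxiredoxin that reduces hydrogen peroxide, was at 989, 1264 and 1045 CPM in the MHCC97L libraries, 713, 672 and 746 in those of MHCC97L-Src, and 804, 691 and 723 in those of MHCC97L-Oxa. It fell with the correction, at log2 fold changes of -0.87 and -0.81 (edgeR adjusted p = 0.00515 and 0.00508), where -0.63 and -0.57 as deposited did not pass.

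The other 3 genes of this system differed less or the other way. Thioredoxin itself, TXN, was at 296 ± 17.3 CPM in MHCC97L, 211 ± 31.4 for MHCC97L-Src and 221 ± 8.21 for MHCC97L-Oxa (SD, n = 3), and did not overlap with MHCC97L in either line, with edgeR adjusted p of 0.17 and 0.213. Its log2 fold change with the correction was -0.01 in MHCC97L-Src and -0.16 in MHCC97L-Oxa, and TXN fell in MHCC97L-Oxa without the first MHCC97L library (-0.37, edgeR adjusted p = 0.0147). PRDX2, a further cytosolic peroxiredoxin, was at 270, 477 and 493 CPM in the MHCC97L libraries, 628, 788 and 511 in those of MHCC97L-Src, and 579, 548 and 598 in those of MHCC97L-Oxa, so that every resistant library lay above every MHCC97L library. Its log2 fold change was 0.64 (SE 0.30) and 0.48 (SE 0.26), with edgeR adjusted p of 0.189 and 0.275, and was 0.21 and 0.17 with the correction. Without the first MHCC97L library PRDX2 rose in MHCC97L-Oxa (0.34, edgeR adjusted p = 0.0198) and differed by 0.44 in MHCC97L-Src (adjusted p = 0.221). PRDX6, at 499 ± 43.3, 469 ± 17.5 and 437 ± 39.4 CPM, overlapped between the lines.

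The genes GCLM, TXNRD1 and GSTP1 carry the core of the antioxidant response element close to their start, and their promoters are shown because they are among the genes that the pathway is known to act on directly. The letters searched were TGACNNNGC on either strand, from 250 bases before to 50 bases after each start in RefSeq's promoters of GRCh38.p14. These letters were found in 9 of the 40 promoters listed for 28 of the genes, or 22.5%, and in 13.35% of all 35116 promoters. The 8 genes were GCLM, TXNRD1, GSTP1, ME1, PGD, MGST1, GPX2 and KEAP1. The other genes searched, among them NQO1, GCLC, TXN, SRXN1, FTL, OSGIN1 and AKR1C1, had no match in this stretch. Capitals mark the letters found, read on the strand of the gene, with TGAC first where the match is on that strand and GTCA last where it is on the other.
GCLM, chr1:93909440-93909480, minus strand, match ending 26 bases before the start: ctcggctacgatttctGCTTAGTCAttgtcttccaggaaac
TXNRD1, chr12:104215664-104215704, plus strand, match ending 91 bases before the start: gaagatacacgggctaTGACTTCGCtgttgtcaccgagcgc
TXNRD1, a second start, chr12:104286914-104286954, plus strand, match ending 94 bases before it: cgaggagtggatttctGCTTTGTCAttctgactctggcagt
GSTP1, chr11:67583730-67583770, plus strand, match ending 58 bases before the start: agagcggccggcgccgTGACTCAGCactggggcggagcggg
ME1, chr6:83431164-83431204, minus strand, match ending 129 bases before the start: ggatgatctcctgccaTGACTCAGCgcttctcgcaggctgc
A match describes the letters and is not a measured binding site. Promoters of GSS, GSR, SLC7A11, PRDX1, PRDX6, HMOX1, AKR1B10, FTH1 and SOD1 were not analysed here. Of the MHCC97L libraries, the first was highest for GCLM, TXNRD1, ME1 and MGST1 and lowest for GSTP1, PGD and KEAP1. The former have a GC content between 37.3% and 44.8%, the latter between 52.9% and 62.5%. With the GC and length correction, all of these genes had negative log2 fold changes against MHCC97L in both resistant lines. TXNRD1 was at -1.40 for MHCC97L-Src and -1.83 for MHCC97L-Oxa, and ME1 at -0.09 and -0.28. Only PGD passed for MHCC97L-Src, and TXNRD1, GSTP1 and PGD for MHCC97L-Oxa. Of the 36 genes described that were tested, 10 and 14 were called lower with the correction, against 5.12% and 6.44% of all tested genes. The corrected median over all genes described was also negative. Whether the letters bear on these differences was not tested.

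Of the enzymes that supply NADPH, the 3 of the pentose phosphate pathway were abundant. PGD, which yields NADPH from 6-phosphogluconate, was at 577, 954 and 825 CPM in the MHCC97L libraries, 650, 610 and 620 in those of MHCC97L-Src, and 617, 563 and 555 in those of MHCC97L-Oxa. It lay below the second and the third MHCC97L libraries in every resistant library and overlapped only with the first. PGD fell with the correction, at log2 fold changes of -0.59 for MHCC97L-Src and -0.67 for MHCC97L-Oxa (edgeR adjusted p = 0.012 and 0.00604), where -0.33 and -0.44 without it did not pass. TALDO1, the transaldolase that recycles sugar phosphates, was at 668 ± 213, 595 ± 86.3 and 603 ± 24.8 CPM in the 3 lines (MHCC97L, MHCC97L-Src, MHCC97L-Oxa), and fell with the correction, at log2 fold changes of -0.60 and -0.47 (edgeR adjusted p = 0.0125 and 0.0208). TKT, the transketolase, overlapped between each resistant line and MHCC97L. With the correction and without the first MHCC97L library, TKT was called lower in MHCC97L-Oxa (log2 fold change -0.29, edgeR adjusted p = 0.0308). It was at 1782, 2213 and 1577 CPM in MHCC97L-Src and 1327, 1327 and 1406 for MHCC97L-Oxa, with a log2 difference of 0.45 (SE 0.13) whose edgeR adjusted p was 0.0814, or 0.0194 with the correction. ME1, the cytosolic malic enzyme, was at 55.3, 23.0 and 20.9 CPM in the MHCC97L libraries, 12.4, 9.33 and 23.0 in those of MHCC97L-Src, and 18.0, 15.2 and 12.8 in those of MHCC97L-Oxa, and did not pass in any comparison with or without the correction. Against MHCC97L its log2 fold changes were -1.15 and -1.11, and without the first MHCC97L library -0.51 and -0.42.

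NQO1 (chr16:69706996-69726951), a quinone reductase that is widely used as a readout of NRF2 activity, was the gene called in MHCC97L-Oxa with the counts as deposited. It was at 526, 729 and 632 CPM in the MHCC97L libraries, 376, 364 and 401 in those of MHCC97L-Src, and 293, 232 and 252 in those of MHCC97L-Oxa. The 3 lines did not overlap, in the order MHCC97L, MHCC97L-Src, MHCC97L-Oxa from high to low. In MHCC97L-Oxa NQO1 fell 2.43-fold (log2 fold change -1.28, SE 0.21, edgeR adjusted p = 0.0387). The change was -1.08 with the GC and length correction, which ended the call (adjusted p = 0.0746), and -1.30 without the first MHCC97L library (adjusted p = 0.00174). It also lost the call when the third MHCC97L library or any MHCC97L-Oxa library was left out, with adjusted p up to 0.321. In MHCC97L-Src NQO1 differed by -0.72 (SE 0.22, edgeR adjusted p = 0.108), or by -0.80 without the first MHCC97L library (adjusted p = 0.0219). With the correction this difference was -0.39 (SE 0.33, edgeR adjusted p = 0.462), which did not pass. With the correction and without the first MHCC97L library it was -0.70 (adjusted p = 0.0359). NQO1 was 1.47-fold higher in MHCC97L-Src than in MHCC97L-Oxa (log2 fold change 0.55, SE 0.12, edgeR adjusted p = 0.0248, and 0.0134 with the correction).

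OSGIN1 (chr16:83948282-83966332), a growth inhibitor induced by oxidative stress, was low and followed the same order. It was at 8.51, 18.5 and 19.1 CPM in the MHCC97L libraries, 8.28, 10.1 and 6.20 in those of MHCC97L-Src, and 3.93, 3.47 and 4.35 in those of MHCC97L-Oxa, or 64 to 342 counts. MHCC97L-Oxa lay below all other libraries, and MHCC97L-Src overlapped with MHCC97L only through the first MHCC97L library. For MHCC97L-Oxa its log2 fold change was -1.97 (SE 0.43, edgeR adjusted p = 0.0822), and OSGIN1 fell with the correction (-2.25, adjusted p = 0.00298). In MHCC97L-Src it was -0.90 (SE 0.45, edgeR adjusted p = 0.209), and OSGIN1 fell with the correction (-1.35, adjusted p = 0.0102). Between the resistant lines OSGIN1 was 2.08-fold higher in MHCC97L-Src (log2 fold change 1.06, SE 0.24, edgeR adjusted p = 0.0385, and 0.0173 with the correction). HMOX1, which breaks down heme, was at 23.7, 48.5 and 49.5 CPM in the MHCC97L libraries, 33.4, 42.3 and 30.1 in those of MHCC97L-Src, and 27.6, 22.8 and 27.6 in those of MHCC97L-Oxa. Without the first MHCC97L library the resistant lines lay below MHCC97L, and HMOX1 fell with the correction, at log2 fold changes of -0.62 for MHCC97L-Src and -0.93 for MHCC97L-Oxa (edgeR adjusted p = 0.0333 and 0.0106).

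**Figure D4:**
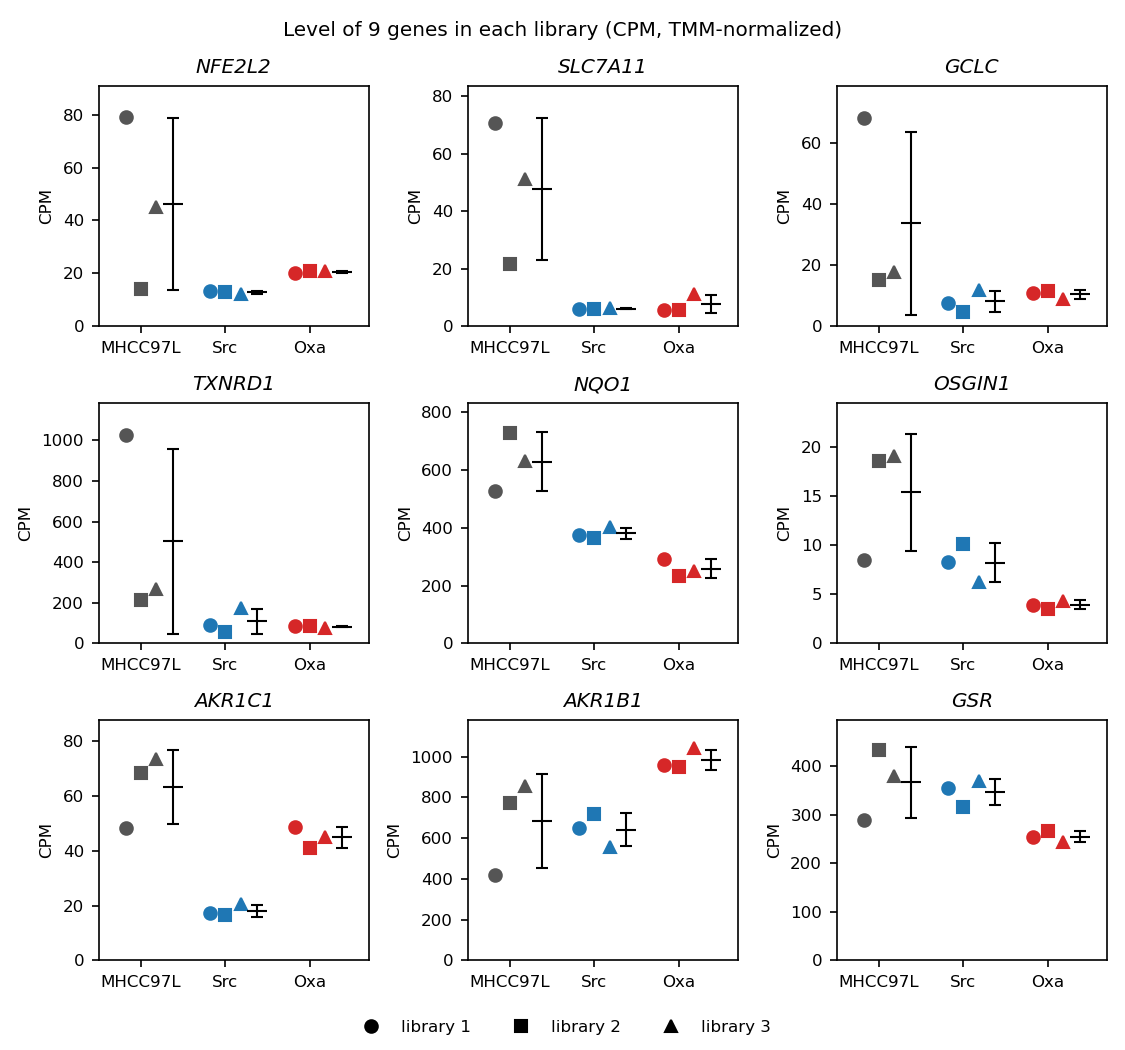
Level of 9 genes in CPM (y axis, from 0) in each library of MHCC97L, MHCC97L-Src and MHCC97L-Oxa, with the mean and SD of the 3 libraries at the right of each group. SLC7A11, GCLC, TXNRD1 and NQO1 lie lower in both resistant lines than in MHCC97L without overlap, AKR1C1 is low in MHCC97L-Src and AKR1B1 is high in MHCC97L-Oxa.

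The aldo-keto reductases reduce aldehydes and ketones with NADPH and include steroid-reducing enzymes. Of the 4 tested between the resistant lines, AKR1C1 and AKR1B1 were lower in MHCC97L-Src than in MHCC97L-Oxa, and AKR1C2 and AKR1C3 did not pass. AKR1C1 (chr10:4963253-4983283, plus strand) was at 48.2, 68.5 and 73.4 CPM in the MHCC97L libraries, 17.2, 16.5 and 20.5 in those of MHCC97L-Src, and 48.6, 41.0 and 45.1 in those of MHCC97L-Oxa. The MHCC97L-Src libraries lay far below the other 6, and MHCC97L-Oxa overlapped with MHCC97L. AKR1C1 was 2.49-fold lower in MHCC97L-Src than in MHCC97L-Oxa (log2 fold change -1.31, SE 0.16, edgeR adjusted p = 0.00135), and -1.08 with the correction (adjusted p = 0.00147). This was the one difference among the genes described that passed under all 17 alternatives run for it, with log2 fold changes from -1.41 to -1.08 and adjusted p up to 0.0295. Against MHCC97L it fell 3.50-fold in MHCC97L-Src (log2 fold change -1.81, SE 0.29, edgeR adjusted p = 0.0214). That call held without the first MHCC97L library (-1.93, adjusted p = 0.00139) and was lost with the correction (-1.17, SE 0.54, adjusted p = 0.206) or when the third MHCC97L library or any MHCC97L-Src library was left out, with adjusted p up to 0.148. In MHCC97L-Oxa AKR1C1 fell only without the first MHCC97L library, by a log2 fold change of -0.57 (edgeR adjusted p = 0.0125), among the 3 ways of fitting given here.

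AKR1C1 has near copies beside it on chromosome 10, AKR1C2 (chr10:4987400-5018031) and AKR1C3 (chr10:5035354-5107686), and its reads can be shared with them. In GENCODE 29 the coding sequences, each 972 bases long, differ at 19 positions between AKR1C1 and AKR1C2 (98.05% identical, with an identical run of up to 189 bases), at 79 between AKR1C1 and AKR1C3 and at 85 between AKR1C2 and AKR1C3. The stretch in which AKR1C1 and AKR1C2 differ most, bases 103 to 162 of the coding sequence, holds 10 of the 19 differences and is shown because reads over it can be assigned. Capitals mark positions at which the 3 genes are not all the same.
AKR1C1: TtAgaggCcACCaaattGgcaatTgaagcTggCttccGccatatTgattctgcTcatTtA
AKR1C2: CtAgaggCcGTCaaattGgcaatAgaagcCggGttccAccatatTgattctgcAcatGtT
AKR1C3: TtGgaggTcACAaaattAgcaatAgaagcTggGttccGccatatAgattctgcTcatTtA
AKR1C2 was counted at 1.44, 3.21 and 2.95 CPM in the MHCC97L libraries, 0.473, 0.652 and 1.04 in those of MHCC97L-Src, and 1.61, 1.68 and 1.06 in those of MHCC97L-Oxa. AKR1C3 was at 52.3, 43.7 and 35.8, then 24.4, 17.2 and 28.8, then 38.3, 29.3 and 35.8. Both lay lower in every MHCC97L-Src library than in any library of the other 2 lines. Their log2 fold changes against MHCC97L-Oxa were -0.99 (SE 0.41) and -0.56 (SE 0.21), with edgeR adjusted p of 0.223 and 0.172, and against MHCC97L they were -1.79 (SE 0.53) and -0.91 (SE 0.32), with adjusted p of 0.103 and 0.124. Without the first MHCC97L library AKR1C2 fell in MHCC97L-Src against MHCC97L (-2.03, edgeR adjusted p = 0.0487). With the correction, AKR1C2 and AKR1C3 in MHCC97L-Src differed from MHCC97L by -1.15 and -0.25 (edgeR adjusted p = 0.369 and 0.652). They differed from MHCC97L-Oxa by -0.75 and -0.32 with it (adjusted p = 0.283 and 0.239). The sum of the 3 genes does not depend on how the counted reads were split among them. Whether reads that match more than one of them were left out of the counts is not known. The sum was 102, 116 and 112 CPM in the MHCC97L libraries, 42.1, 34.3 and 50.3 in those of MHCC97L-Src, and 88.6, 72.0 and 81.9 in those of MHCC97L-Oxa. The mean sum was 2.60-fold lower in MHCC97L-Src than in MHCC97L and 1.91-fold lower than in MHCC97L-Oxa.

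AKR1B1 (chr7:134442350-134459284), the aldose reductase, went the other way from most of the genes in MHCC97L-Oxa. It was at 422, 771 and 858 CPM in the MHCC97L libraries, 650, 718 and 559 in those of MHCC97L-Src, and 961, 952 and 1042 in those of MHCC97L-Oxa. MHCC97L-Oxa lay above all other libraries, and MHCC97L-Src overlapped with MHCC97L. AKR1B1 was 1.54-fold lower in MHCC97L-Src than in MHCC97L-Oxa (log2 fold change -0.62, SE 0.11, edgeR adjusted p = 0.0129, and 0.00238 with the correction). Against MHCC97L the log2 fold change in MHCC97L-Oxa was 0.53 (SE 0.28, edgeR adjusted p = 0.269), and 0.37 without the first MHCC97L library (adjusted p = 0.0297). It was 0.30 with the correction (edgeR adjusted p = 0.261). With the correction and without that library it was 0.18 (adjusted p = 0.385), and neither passed. AKR1B10, its neighbour on chromosome 7 and a reductase often raised in liver tumours, had 66, 39 and 24 counts in the MHCC97L libraries, 17, 6 and 25 in those of MHCC97L-Src, and 9, 3 and 6 in those of MHCC97L-Oxa. MHCC97L-Oxa lay below MHCC97L without overlap, with a log2 fold change of -2.79 (SE 0.58, edgeR adjusted p = 0.0709), and AKR1B10 fell with the correction (-2.71, adjusted p = 0.012). One of its MHCC97L-Oxa libraries was at the floor of 3 counts, and AKR1B10 can share reads with the closely related AKR1B15.

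The glutathione peroxidases and transferases were GC-rich except for MGST1, and their levels in the first MHCC97L library were low. GPX1, the cytosolic peroxidase, was at 395, 806 and 939 CPM in the MHCC97L libraries, 681, 941 and 593 in those of MHCC97L-Src, and 621, 626 and 675 in those of MHCC97L-Oxa. GPX4, which reduces lipid peroxides and guards against ferroptosis, was at 252, 462 and 476 CPM, then 427, 558 and 368, then 390, 392 and 440. Both overlapped between lines. The direction of the fold change turned with the correction for GPX4 in both lines and for GPX1 in MHCC97L-Src. GPX4 differed by 0.19 (SE 0.30) in MHCC97L-Src and 0.04 (SE 0.26) in MHCC97L-Oxa with the counts as deposited, and by -0.38 and -0.36 with the correction (edgeR adjusted p = 0.0404 and 0.0351). GPX1 differed by 0.05 (SE 0.35) and -0.15 (SE 0.31), and by -0.51 and -0.55 with the correction (edgeR adjusted p = 0.0321 and 0.0186). GSTP1, a cytosolic transferase that conjugates electrophiles to glutathione, was at 307 ± 112 CPM in MHCC97L, 323 ± 78.3 for MHCC97L-Src and 241 ± 14.1 for MHCC97L-Oxa (SD, n = 3), and fell with the correction in MHCC97L-Oxa (log2 fold change -0.69, edgeR adjusted p = 0.00931).

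GPX3, the secreted peroxidase, was at 33.3, 65.0 and 63.7 CPM in the MHCC97L libraries, 63.0, 82.1 and 50.6 in those of MHCC97L-Src, and 43.3, 43.5 and 40.4 in those of MHCC97L-Oxa. The resistant lines did not overlap with each other, at a log2 difference of 0.61 (SE 0.17) between MHCC97L-Src and MHCC97L-Oxa whose edgeR adjusted p was 0.0744, or 0.0238 with the correction. Against MHCC97L, GPX3 fell with the correction in MHCC97L-Oxa (log2 fold change -0.64, edgeR adjusted p = 0.0168). MGST1, a membrane-bound transferase with peroxidase activity, was at 512, 247 and 207 CPM in the MHCC97L libraries, 156, 116 and 167 in those of MHCC97L-Src, and 186, 200 and 178 in those of MHCC97L-Oxa. Both resistant lines lay below MHCC97L without overlap, but the log2 fold changes of -1.14 (SE 0.36) and -0.77 (SE 0.34) did not pass (edgeR adjusted p = 0.111 and 0.223) and were -0.35 and -0.20 with the correction, and -0.59 and -0.18 without the first MHCC97L library.

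Ferritin stores iron in a shell of FTH1 and FTL chains, and both genes have processed pseudogenes that can share their reads. FTL was at 2701, 5436 and 5995 CPM in the MHCC97L libraries, 3976, 5308 and 3266 in those of MHCC97L-Src, and 2783, 2537 and 2855 in those of MHCC97L-Oxa. Without the first MHCC97L library, MHCC97L-Oxa was at about one level well below MHCC97L (log2 fold change -0.97, edgeR adjusted p = 0.00174), against -0.79 (SE 0.32) with all libraries, which did not pass (adjusted p = 0.213). FTL fell with the correction, at log2 fold changes of -1.11 for MHCC97L-Oxa and -0.61 for MHCC97L-Src (edgeR adjusted p = 0.00343 and 0.0287). MHCC97L-Oxa and MHCC97L-Src did not overlap for FTL, at a log2 difference of 0.61 (SE 0.16, edgeR adjusted p = 0.0596, and 0.00558 with the correction). FTH1 overlapped between all lines and differed by -0.30 (SE 0.35) and -0.32 (SE 0.30) from MHCC97L, which did not pass. Without the first MHCC97L library FTH1 fell in MHCC97L-Oxa (-0.45, edgeR adjusted p = 0.00866).

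The superoxide dismutases and catalase passed the test in no comparison, with the counts as deposited or with the correction. SOD1, the cytosolic dismutase, was at 335 ± 27.9 CPM in MHCC97L, 336 ± 19.6 for MHCC97L-Src and 292 ± 17.9 for MHCC97L-Oxa. For SOD1, MHCC97L-Oxa lay below MHCC97L without overlap (log2 fold change -0.20, edgeR adjusted p = 0.484). With the correction and without the first MHCC97L library, SOD1 was called lower in MHCC97L-Oxa (-0.31, edgeR adjusted p = 0.0207). SOD2, the mitochondrial dismutase, was at 106, 47.3 and 42.3 CPM in the MHCC97L libraries, 58.5, 40.1 and 99.3 in those of MHCC97L-Src, and 73.3, 43.1 and 44.7 in those of MHCC97L-Oxa, so that single libraries of each line were high. CAT, which breaks down hydrogen peroxide in peroxisomes, was at 144, 53.0 and 35.8 CPM, then 33.4, 20.9 and 59.5, then 64.1, 50.8 and 46.8, with the groups overlapping.

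Between the resistant lines, without the MHCC97L libraries, 6 of 35 genes passed (edgeR's quasi-likelihood test, adjusted p under 0.05), where 4.64% of all tested genes were called. GSR, NQO1 and OSGIN1 were higher in MHCC97L-Src, against 2.12% of all tested genes, and NFE2L2, AKR1B1 and AKR1C1 were lower, against 2.52%. The groups did not overlap for 8 genes that were higher in MHCC97L-Src and 6 that were lower, against 13.9% and 12.7% of all tested genes. With the GC and length correction 8 genes were called, where 9.62% of all tested genes were. FTL, GPX3 and TKT joined the higher genes and NFE2L2 was no longer called. AKR1C1 alone was called with any one of the 3 MHCC97L-Oxa libraries or the first MHCC97L-Src library left out. In those fits 1.38% to 2% of all tested genes were called. Without the second MHCC97L-Src library 7 genes were called and without the third 13, where 8.51% and 13.3% of all tested genes were. The median log2 fold change was 0.10 over the genes described and -0.02 over all tested genes.

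Other genes of the pathway were taken from 6 lists of 134 names, covering further regulators of NRF2, further target enzymes, glutathione turnover, other redox enzymes, iron handling and enzymes that make superoxide or hydrogen peroxide. Of these 129 were counted and 106 tested. Against MHCC97L, 2 rose and 0 fell in MHCC97L-Src by edgeR's quasi-likelihood test, where 1.43% and 0.698% of all tested genes did. At its unadjusted p under 0.05, 17 were higher and 17 lower, where 9.4% and 20.1% of all tested genes were. DESeq2 called 13 higher and 5 lower, where it called 6.01% and 11.6% of all tested genes. In MHCC97L-Oxa 1 rose and 1 fell by edgeR's test, where 0.771% and 0.182% of all tested genes did. At its unadjusted p under 0.05, 11 were higher and 14 lower, against 8.84% and 13.6%. DESeq2 called 8 higher and 5 lower, against 4.73% and 2.67%. With the correction 13 rose and 7 fell in MHCC97L-Src, where 5.5% of all tested genes rose and 5.12% fell, and 12 rose and 12 fell in MHCC97L-Oxa, where 6.49% and 6.44% did. With the counts as deposited, the median log2 fold changes over the 106 genes were 0.06 and -0.08, both above the medians of all tested genes. Those of the 36 genes described were below them. The part of GC content in this contrast was not tested.

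The genes of these lists that passed differed in role. MSRB2, which repairs oxidized methionine in mitochondria, rose in MHCC97L-Src from 176, 225 and 251 counts to 639, 714 and 611 (log2 fold change 1.70, SE 0.33, edgeR adjusted p = 0.0421). NOX5, an oxidase that makes superoxide, rose from 7, 13 and 10 counts to 46, 37 and 53 (2.25, SE 0.47, adjusted p = 0.0498). MAFK, a small MAF partner of NRF2 like MAFG, rose in MHCC97L-Oxa from 788, 1012 and 1051 counts to 2337, 2730 and 2618 (1.42, SE 0.22, edgeR adjusted p = 0.0325). TRIM16L fell in MHCC97L-Oxa from 2569, 3866 and 4206 counts to 1289, 1257 and 1400 (-1.44, SE 0.26, edgeR adjusted p = 0.0489). None of these groups overlapped, and all 4 calls held with the correction.

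Between the resistant lines 6 genes of the lists were higher in MHCC97L-Src and 4 lower, where 2.12% and 2.52% of all tested genes were. Among the higher were SELENOP, a secreted selenium carrier, and SQSTM1, the p62 protein that can bind KEAP1. SQSTM1 differed by 0.64 (SE 0.14, edgeR adjusted p = 0.029) and SELENOP by 1.24 (SE 0.16, adjusted p = 0.002). The largest 3 on the lower side were CP, the copper-binding ferroxidase ceruloplasmin, with 34, 20 and 23 counts against 127, 130 and 210 (-2.50, SE 0.32, edgeR adjusted p = 0.00189), STEAP3, an iron reductase of endosomes (-1.06, SE 0.12, adjusted p = 0.000808), and PON2, an antioxidant paraoxonase (-0.85, SE 0.14, adjusted p = 0.0088). All 5 of these also passed with the correction.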

How the data were processed

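RNA of 9 libraries was analysed, 3 each of MHCC97L, MHCC97L-Src and MHCC97L-Oxa, grouped by the treatment in their labels (none, saracatinib or oxaliplatin). The labels describe stranded poly(A) libraries and name 2 sequencer models without saying which library was read on which. The submitters' processing notes name Trimmomatic 0.36, HISAT2 2.2.1.0 and GRCh38.p12. The counting program and its strand setting are not given in the sources used here. The authors deposited raw counts per gene and, for the same genes, FPKM values. The counts were used for the tests and the FPKM only to compare levels between genes and for an alternative test.

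Each pair of lines was fitted on its 6 libraries by edgeR 4.0.16 (quasi-likelihood test, filterByExpr with a minimum count of 10, TMM, Benjamini-Hochberg adjustment over all tested genes, call at an adjusted p under 0.05). The study's methods name no test for sequencing counts. The standard error is the log2 fold change over the square root of F. GC content and length were those of the longest GENCODE 29 transcript, found for 19343 of 20030 genes, and were corrected per library by natural splines with 5 degrees of freedom each, as edgeR offsets. A floor of 3 counts, 0.165 to 0.177 CPM, covers counting error only, since amplified reads were not collapsed to single molecules. Gene coordinates are from GENCODE 29 on GRCh38 and promoters from RefSeq's GRCh38.p14. The scripts were tested on simulated data. Python 3.11.15 with NumPy 2.4.6, pandas 2.3.3 and matplotlib 3.10.9 and R 4.3.3 with DESeq2 1.42.0 and limma 3.58.1 were used.

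The 37 genes, the lists and the alternatives were chosen with earlier results of these data known. All 37 are accounted for, and of the other lists the text names, per comparison, up to 3 genes with the largest rise and 3 with the largest fall among those called whose higher line has 10 or more counts in each library, and 1 gene that this rule names is not reported here. Alternatives were other tests, normalizations, filters, pseudocounts and thresholds, a replicate block, the correction above and each library left out.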

Additional observations from a re-analysis of the deposited data

Results flagged for a closer look

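The 6 genes that differed between the resistant lines in the test of that difference itself (edgeR's quasi-likelihood test) were picked out. As log2 fold changes of MHCC97L-Src against MHCC97L-Oxa they were -1.31 for AKR1C1, -0.62 for AKR1B1, -0.67 for NFE2L2, 1.06 for OSGIN1, 0.55 for NQO1 and 0.44 for GSR. Of the 17 alternatives run for each, AKR1C1 was called in 17, AKR1B1 in 12, NFE2L2, GSR and NQO1 in 9 and OSGIN1 in 8, and none of the 6 changed direction. With all 9 libraries in one fit, AKR1C1 alone was called. AKR1B1 was higher in MHCC97L-Oxa than in any MHCC97L library, while OSGIN1, NQO1 and GSR were lower there than in any, and why was not tested.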

How the results depend on the processing

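The number of genes called depended on the setting in all 3 comparisons, with 2 in MHCC97L-Src against MHCC97L, 1 in MHCC97L-Oxa against MHCC97L and 6 in MHCC97L-Src against MHCC97L-Oxa as reported. In the same order they were 6, 6 and 8 with DESeq2 (17.6%, 7.4% and 7% of all tested genes), 11, 5 and 1 with all 9 libraries in one fit (16%, 4.05% and 0.703% of all tested genes), 10, 14 and 8 with the GC and length correction, 19, 20 and 18 with limma voom quality weights (29.6%, 18.4% and 35.2%), 1, 1 and 3 by limma-trend on log2(FPKM + 1) (1.9%, 2.09% and 4.06%), 2, 3 and 3 on log2(FPKM + 0.1) (2.55%, 2.12% and 3.95%), 2, 2 and 6 with DESeq2's normalization in edgeR (2.58%, 1.21% and 4.29%), 3, 3 and 7 without the filter on low counts (4.63%, 1.08% and 4.08%), and 8, 8 and 2 where an unadjusted p under 0.05 and a log2 fold change beyond 1 in either direction were asked for (24.6%, 16.2% and 4.01%). With the correction and without the first MHCC97L library, chosen after seeing the data, 14 and 20 were called. Leaving out one library gave 0 to 7, 0 to 21 and 1 to 13. The shares of all tested genes called in those fits were 0.18% to 27.8%, 0.0163% to 22.1% and 1.38% to 13.3%. Replicate numbers did not pair the libraries (correlations of same-numbered deviations from -0.63 to 0.42), and with the replicate block 6, 2 and 3 genes were called (8.21%, 0.763% and 3.39% of all tested genes), or 1, 10 and 4 with the block and the correction (1.79%, 4.97% and 3.94%). Directions of called values turned only with the correction, to -0.51 for GPX1 and -0.38 for GPX4 in MHCC97L-Src and -0.36 for GPX4 in MHCC97L-Oxa, and with the correction but without the first MHCC97L library, to -0.59 for GPX1, -0.37 for GPX4 and -0.50 for GSTP1 in MHCC97L-Src and -0.34 for GPX4 in MHCC97L-Oxa. The cause was not tested. Over all genes tested, calls ranged from 22 to 3567, 2 to 2705 and 86 to 4220 at an adjusted p under 0.05, against 256, 115 and 556 as reported. With 3 libraries a line, an adjusted p above 0.05 does not show that levels were equal.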
